A study of Homo sapiens with 8 samples.

Results

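The human miRNAs with names from hsa-miR-1000 upwards were taken from the arrays, and those carrying a detection flag on at least 1 of the 7 distinct arrays were kept, apart from 25 listed numbers that were set aside. This gave 91 miRNAs. The array carries 2006 human miRNAs, of which 307 were detected on at least 1 array, and 1164 of the 2006 are numbered 1000 or more. Detection reached 115 of these 1164 miRNAs (9.88%), 91 of them kept and 24 set aside by number. Of the 842 miRNAs with lower numbers, which include the let-7 family, 192 (22.8%) were detected, and these 192 are the earlier-numbered miRNAs used for comparison. The 91 miRNAs were thus chosen by the measured detection flag, so that their detection is given as a description. The set-aside numbers were not neutral to treatment either. Of the 24 set-aside miRNAs, 17 passed the thresholds for a trastuzumab response in at least 1 of the cell lines (14 in BT474 and 9 in SKBR3), and counts of responding miRNAs among the 91 are therefore given without being read against the rest of the array.

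miRNAs are short RNAs that guide Argonaute proteins to messenger RNAs, mainly through pairing of the seed, bases 2 to 8 from the 5′ end. The registry miRBase numbers them in the order of their submission, so that a high number marks a late annotation, often from deep sequencing of small RNAs. Well-studied families such as let-7, miR-200 and miR-26 have low numbers. Some late entries lie within genes of other small RNAs or within repeated sequence, and for most of them the targets have been studied little.

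The RNA came from BT474, a breast cancer cell line of the luminal B subtype with estrogen receptor, progesterone receptor and HER2, and from SKBR3, a breast cancer line with HER2 and without estrogen receptor, for which the labels and the study's methods differ on the progesterone receptor. HER2 is the receptor tyrosine kinase that the antibody trastuzumab binds. Cells were given 6 µg/mL trastuzumab or PBS, the vehicle, for 144 h, with 2 biological replicates for each treatment and line. Both lines are established cultures without a genetic change made for the study. The file labelled SKBR3 PBS replicate 1 is a copy of that of BT474 PBS replicate 1, and it was left out, so that SKBR3 has 1 PBS array and 2 trastuzumab arrays and BT474 has 2 of each. The 7 arrays lie on 1 slide with every PBS array in slide row 2 and every trastuzumab array in row 1, and treatment and slide row cannot be told apart. The BT474 arrays lie in slide columns 1 and 2 and the SKBR3 arrays in columns 3 and 4, so that line and slide column cannot be told apart either. Each array carries 60180 spots for human miRNAs, 30 for each, and detected 201 to 256 miRNAs. Of the 6 epithelial marker miRNAs, all were detected in BT474, whereas SKBR3 had hsa-miR-200c-3p and hsa-miR-141-3p but no signal for hsa-miR-200a-3p, hsa-miR-200b-3p, hsa-miR-429 and hsa-miR-205-5p. Of 15 markers of blood, stromal, muscle and liver cells, 3 were detected in BT474 (hsa-miR-451a on 1 array, hsa-miR-126-3p on 3 and hsa-miR-1 on 4) and none in SKBR3. With so few arrays, all values have limited precision.

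The mature sequences of 6 of the 8 brightest late-annotated miRNAs are shown because the 8 carry most of the signal described here. Sequences and positions are from RefSeq (GRCh38.p14), 5′ to 3′, with the seed in capitals.
hsa-miR-4454: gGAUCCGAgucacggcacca (chr4:163093607-163093626, minus strand)
hsa-miR-5100: uUCAGAUCccagcggugccucu (chr10:42997630-42997651, plus strand)
hsa-miR-4284: gGGCUCACaucaccccau (chr7:73711327-73711344, plus strand)
hsa-miR-6089: gGAGGCCGggguggggcggggcgg (chrX:2609229-2609252, plus strand), the first of 2 loci
hsa-miR-6090: gGGGAGCGaggggcggggc (chr11:128522430-128522448, plus strand)
hsa-miR-6127: uGAGGGAGugggugggagg (chr1:22633328-22633346, minus strand)
hsa-miR-4284 lies within STX1A, a gene of the vesicle fusion machinery, and hsa-miR-6090 within ETS1, a transcription factor gene. The other 4 lie outside annotated genes. hsa-miR-4286 and hsa-miR-3960 complete the group of 8 brightest.

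A mature sequence was matched for 77 of the 91 miRNAs. Their median G+C content was 68.2%, with a range from 30.4% to 94.4%. The earlier-numbered detected miRNAs had a median of 47.6% (153 with a sequence) and the undetected miRNAs numbered 1000 or more had 50% (906 with a sequence). G alone made up a median of 47.1% of the bases, against 23.8% in the earlier-numbered miRNAs. A run of GGGG, searched on the mature strand, was present in 31 of the 77 sequences (40.3%), in 4.58% of the earlier-numbered detected sequences and in 10.1% of all 1687 array miRNAs with a sequence. The median length was 21 bases against 22. Within all miRNAs numbered 1000 or more, the set-aside ones included, the share detected rose with G+C content, from 3 of 167 sequences under 40% G+C (1.80%) to 38 of 133 at 70% or more (28.6%). By position, 49 of the 77 lie within a protein-coding gene, 11 within another annotated gene and 17 within none.

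**Figure D1:**
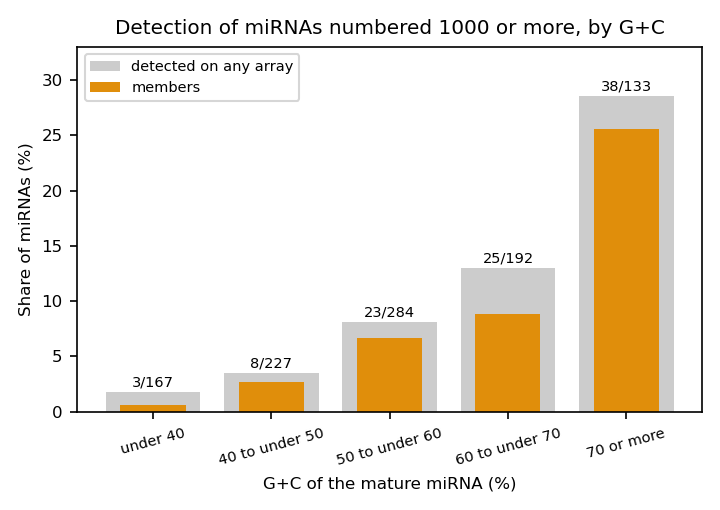
Share (%) of miRNAs numbered 1000 or more that were detected on at least 1 array (grey) and that belong to the 91 miRNAs described here (orange), by G+C content of the mature sequence. The numbers above the bars are detected miRNAs over all miRNAs of the bin, and the share goes from 1.80% in the lowest bin to 28.6% in the highest.

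Few of the 77 shared a seed. hsa-miR-3940-5p and hsa-miR-4507 had 1 seed in common, and so did hsa-miR-4505 and hsa-miR-5787, and these are printed together because the seed is the part of a miRNA that pairs with its targets.
hsa-miR-3940-5p: gUGGGUUGgggcgggcucug (chr19:6416470-6416489, minus strand)
hsa-miR-4507: cUGGGUUGggcugggcuggg (chr14:105858125-105858144, minus strand)
hsa-miR-4505: aGGCUGGGcugggacgga (chr14:73758749-73758766, plus strand)
hsa-miR-5787: gGGCUGGGgcgcggggaggu (chr3:50227438-50227457, plus strand)
hsa-miR-4507 and hsa-miR-4505 were detected on all 7 arrays, with signals from 145 to 224 and from 268 to 325. Their seed partners hsa-miR-3940-5p and hsa-miR-5787 were detected on 1 array each, at 45.9 on the SKBR3 PBS array and at 69.5 on SKBR3 trastuzumab replicate 1. hsa-miR-4505 and hsa-miR-4507 have different seeds but share a run of 12 bases. It covers bases 2 to 13 of hsa-miR-4505, its seed included, and bases 9 to 20 of hsa-miR-4507.

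Signal was concentrated in a few of the 91 miRNAs. The summed signal is the intensity that the extraction software adds up over the spots of a miRNA, and it is 0.1 for a miRNA that is not detected. It depends on the probe as well as on the RNA and does not order miRNAs by amount. On each array 63 to 73 of the 91 miRNAs were detected. They made up 30.6% to 35.4% of the summed signal of all human miRNAs on the SKBR3 arrays and 16.1% to 20.9% on the BT474 arrays, and the ranges did not overlap. The 8 brightest held 76.6% to 83.8% of the signal of the 91 on each array.

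hsa-miR-4454 had the highest summed signal of every array and was saturated. Its signals were 27442 and 27408 with PBS and 27402 and 27346 with trastuzumab in BT474, and 27437 with PBS and 27426 and 27427 with trastuzumab in SKBR3. Every one of its spots was flagged as saturated on every array, so that differences between the groups could not be measured for it. Without it, the 91 miRNAs made up 12.1% to 15.7% of the signal in BT474 and 24.1% to 27.3% in SKBR3.

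The next miRNAs in order, hsa-miR-5100 and hsa-miR-4284, were each saturated on 1 of their 2 probes. hsa-miR-5100 had 16561 and 16823 with PBS and 13109.9 and 15485 with trastuzumab in BT474, and 15155 with PBS and 15522 and 15540.2 with trastuzumab in SKBR3. hsa-miR-4284 had 14058 and 14925 with PBS and 15115 and 15215 with trastuzumab in BT474, and 15051 with PBS and 15918 and 15499 with trastuzumab in SKBR3. Saturated spots were present on 6 of the 7 arrays for each of them, and the summed signals understate any difference between the arrays. The other probe of hsa-miR-5100 was not saturated, with spot means of 13507 and 14887 with PBS and 5502 and 8862 with trastuzumab in BT474, and 7332 with PBS and 8352 and 8696 with trastuzumab in SKBR3. The unsaturated probe of hsa-miR-4284 had spot means of 5298 and 5866 with PBS and 7508 and 7633 with trastuzumab in BT474, and 6447 with PBS and 10386 and 8435 with trastuzumab in SKBR3. These spot means are not normalized. On them both trastuzumab arrays lay above the PBS arrays in each line for hsa-miR-4284. For hsa-miR-5100 they lay below in BT474 and above in SKBR3. In the authors' log2 values, normalized for each line, the same hsa-miR-5100 probe changed by -1.22 in BT474 and by -0.089 in SKBR3. That of hsa-miR-4284 changed by 0.18 and 0.27.

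The other 5 of the 8 had no saturated spots. hsa-miR-4286 had 6628 and 7686 with PBS and 4004 and 6401 with trastuzumab in BT474, and 4592 with PBS and 6125 and 6300.3 with trastuzumab in SKBR3, with BT474 trastuzumab replicate 1 as the lowest array. hsa-miR-6089 ranged from 3577 to 4249 in BT474 and from 2683 to 3097 in SKBR3, with every BT474 array above every SKBR3 array. The order was the opposite for hsa-miR-3960, at 2169 to 2969 in BT474 and 3599 to 4414 in SKBR3, and for hsa-miR-6090, at 1399 to 1720.1 and 2051 to 2148. For hsa-miR-6127, at 1358 to 1762 in BT474 and 1629 to 2094 in SKBR3, the lines overlapped.

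**Figure D2:**
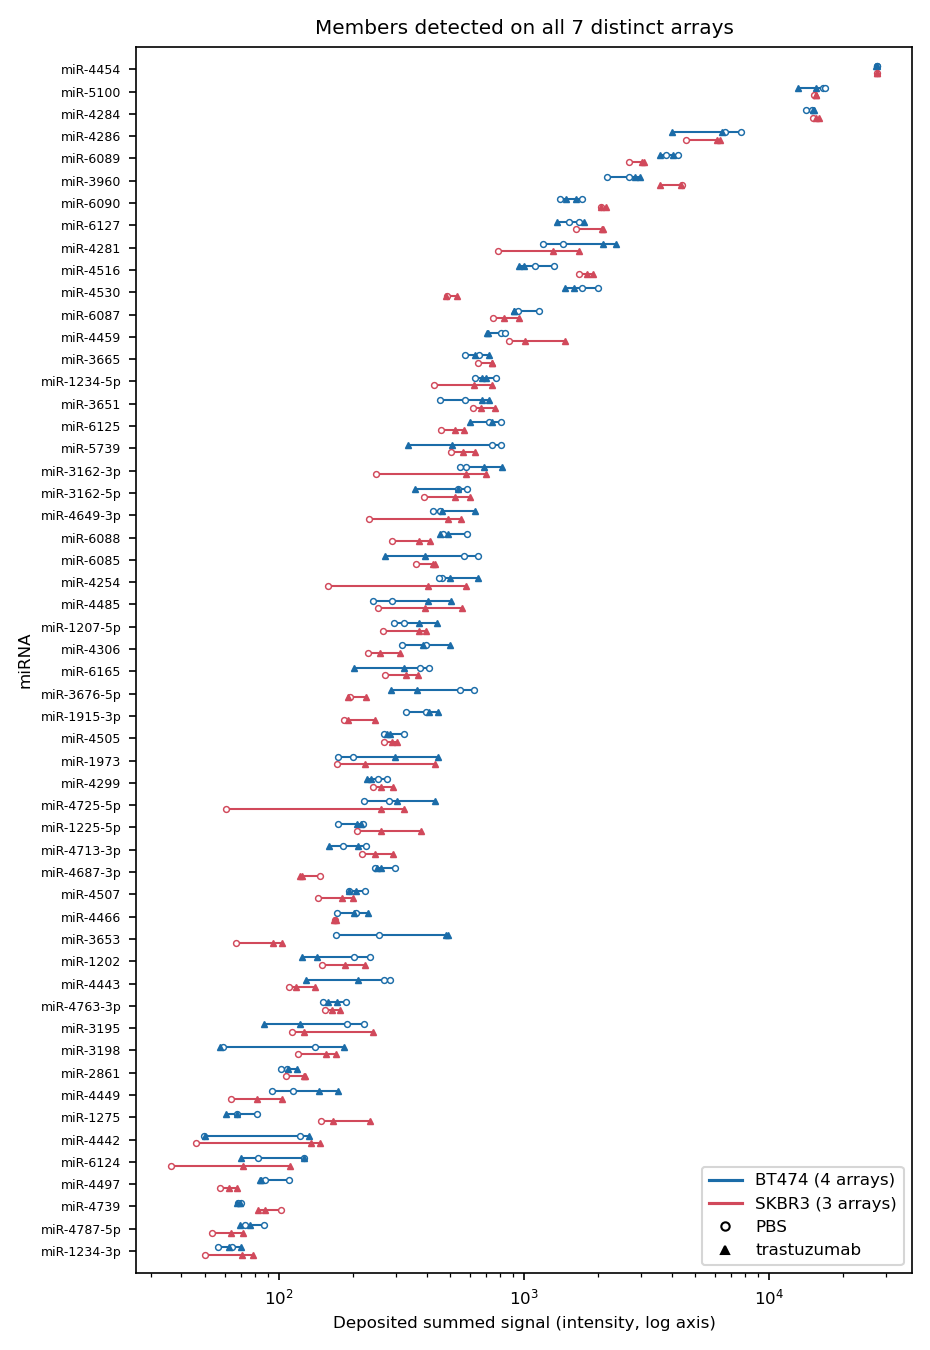
Deposited summed signal (log axis) of the 54 late-annotated miRNAs detected on all 7 distinct arrays, with 1 point per array (open circles PBS, filled triangles trastuzumab) and a line from the lowest to the highest array of BT474 (blue) and SKBR3 (red). hsa-miR-4454 is saturated at the upper end, most miRNAs lie under 1000, and the lines overlap for 37 of the 54 miRNAs.

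Of the 91 miRNAs, 54 were detected on all 7 arrays (59.3%, against 55.7% of the earlier-numbered miRNAs), 6 on 6, none on 5, 8 on 4, 4 on 3, 4 on 2 and 15 on 1 (16.5%, against 6.77%). Both lines detected 67 of the 91, BT474 alone 14 and SKBR3 alone 10. The 15 miRNAs of a single array had signals from 38.4 to 117 with a median of 59.5, and their spots averaged 122 (median over the 15 and the 7 arrays) after background subtraction, compared with 816 for the 54 miRNAs of all arrays and -0.098 for the undetected miRNAs. Among undetected miRNAs numbered 1000 or more, hsa-miR-3692-5p, hsa-miR-6504-3p and hsa-miR-4303 had the highest spot means over the 7 arrays, at 347, 328 and 257. Their arrays differed widely, from 16.8 to 2010, from -2.14 to 2148 and from -41.2 to 1820. These means therefore do not place them close to detection. By number, the share of array miRNAs that belong to the 91 was 7.01% from 1000, 3.57% (1 of 28) from 2000, 6.12% from 3000, 8.37% from 4000, 5.26% from 5000 and 16.5% (14 of 85) from 6000 upwards.

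Each miRNA is read by probes of 2 to 4 different sequences, and the probes of the 91 gave more even signals than those of earlier-numbered miRNAs. The brightest probe was a median of 1.49 times the dimmest, against 3.02 times for the 192 earlier-numbered miRNAs. No test was made of this difference. The widest spread among miRNAs of all 7 arrays was in hsa-miR-4497, hsa-miR-4505 and hsa-miR-4286. In hsa-miR-4286 the probe means were 26655 and 1522, a ratio of 17.5, and in hsa-miR-4505 they were 1364 and 69.2, a ratio of 19.7. hsa-miR-4497 had 1 probe at 380.4 and the other at -1.09, at background, so that its summed signal came from 1 probe sequence. Of the 91 miRNAs, 26 had no probe with most spots above background on any array. A probe was taken as measured in a line when over 50% of its spots were above background on every array of that line. With at least 2 measured probes, the trastuzumab change had the same sign on all probes in 29 of 34 miRNAs in BT474 (84 of 87 earlier-numbered miRNAs) and in 31 of 31 in SKBR3 (61 of 64). Single probes had the sign of the summed signal in 75 of 82 cases in BT474 and in 77 of 79 in SKBR3. In the authors' log2 values, which include dim probes, 19 of the 91 miRNAs (20.9%) in BT474 and 28 (30.8%) in SKBR3 had probes that changed in opposite directions. The shares were 31.8% and 37.0% for the 192 earlier-numbered miRNAs.

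In BT474, most late-annotated miRNAs were lower after trastuzumab relative to the rest of the array, with hsa-miR-3676-5p, hsa-miR-6085 and hsa-miR-5739 the calls with the smallest p-values. After quantile normalization of the 7 arrays and a floor of 10, log2 values were compared with limma. Calls needed an unadjusted p below 0.05 together with a change of over 2-fold. Of 80 miRNAs tested, 7 were called, 6 lower and 1 higher, while 14% of the 285 miRNAs tested on the array were called (7.02% in each direction). Of the 61 detected on all 4 BT474 arrays, 44 had a lower mean and 16 a higher mean after trastuzumab. Of all 221 array miRNAs detected on these arrays, 107 had a lower mean. Without normalization, 31 of the 54 late-annotated miRNAs detected on all 7 arrays were lower and 23 higher. Of the 107 earlier-numbered ones, 17 were lower and 90 higher. The median shift of the 80 was -0.31 on the log2 scale, and that of all 285 was 0.0049. Without trastuzumab replicate 2, 12 were called. The split of calls moved with the scaling, to 10 lower and none higher with 75th percentile scaling and to 1 in each direction with no normalization. These scalings moved the median of all miRNAs to -0.22 and to 0.22, and the median of the late-annotated miRNAs lay 0.31 and 0.30 below it.

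hsa-miR-6085 had signals of 570.1 and 646 with PBS and 271 and 393 with trastuzumab. Both trastuzumab arrays lay below both PBS arrays. The log2 difference was -1.13 (SE 0.085) with unadjusted p = 0.00115, adjusted p = 0.0234 (limma). hsa-miR-3676-5p had 548 and 626 with PBS and 287 and 367 with trastuzumab, again without overlap. Its difference was -1.06 (SE 0.062) with unadjusted p = 0.000558, adjusted p = 0.0183 (limma). hsa-miR-5739 had 739 and 805 with PBS and 336 and 509 with trastuzumab and a difference of -1.13 (SE 0.15) with unadjusted p = 0.00525, adjusted p = 0.044 (limma). hsa-miR-4443, named after its values were seen, had 269 and 284 with PBS and 129 and 211 with trastuzumab and a smaller p than hsa-miR-5739 (unadjusted p = 0.00287, adjusted p = 0.0327, limma), but it was 1.99-fold lower, just under the fold threshold. hsa-miR-6085, hsa-miR-3676-5p and hsa-miR-5739 were the called miRNAs with an adjusted p under 0.05, and in each of them replicate 1 was the lower of the trastuzumab arrays. hsa-miR-5739 was not called without PBS replicate 1 (-1.02) or without trastuzumab replicate 1 (-0.99).

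In normalized summed signal, hsa-miR-1281 and hsa-miR-3195 were lower by a larger amount and with a wider spread. Their probe spot means did not show the larger amount. Without normalization, these changed on the log2 scale by -0.90 and -0.58 for hsa-miR-1281 and by -0.57 and -0.72 for hsa-miR-3195. The changes were -0.84 and -0.88 for hsa-miR-6085, -0.98 and -0.82 for hsa-miR-3676-5p and -0.95 and -0.87 for hsa-miR-5739. hsa-miR-1281 had 216 and 177 with PBS and 53.8 and 120.0 with trastuzumab in BT474. The difference was -1.80 (SE 0.35) with unadjusted p = 0.0158, adjusted p = 0.0803 (limma), and no array could be left out without losing the call (-2.25 to -1.49). hsa-miR-3195 had 189 and 223 with PBS and 87.0 and 122 with trastuzumab and a difference of -1.23 (SE 0.25) with unadjusted p = 0.0177, adjusted p = 0.0825 (limma). It was not called without PBS replicate 1 (-1.23), PBS replicate 2 (-1.33) or trastuzumab replicate 2 (-0.96). hsa-miR-4436b-5p had signals of 139 and 65.2 with PBS and none with trastuzumab, and its call (adjusted p = 0.12, limma) depends on the floor. Its probes had spot means of 211 and 359 with PBS and 83.3 and 137 with trastuzumab, without normalization, which are ratios of 2.53 and 2.62. Its call was lost without trastuzumab replicate 1 (-2.61) or replicate 2 (-2.47).

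The sequences of 4 of the 7 miRNAs called in BT474 are shown, 3 with lower and 1 with higher values. hsa-miR-6085 holds a run of 5 G, and hsa-miR-1281 is made almost wholly of C and U.
hsa-miR-6085: aAGGGGCUgggggagcaca (chr15:62343111-62343129, plus strand)
hsa-miR-1281: uCGCCUCCuccucuccc (chr22:41092545-41092561, plus strand)
hsa-miR-4436b-5p: gUCCACUUcugccugcccugcc (chr2:110086490-110086511, minus strand), the first of 2 loci
hsa-miR-3663-3p: uGAGCACCacacaggccgggcgc (chr10:117167695-117167717, minus strand)
hsa-miR-3663-3p was the called miRNA with a higher value. It was not detected on PBS replicate 1, 59.4 on PBS replicate 2 and 126 and 143 with trastuzumab. The size of its log2 difference of 2.44 (SE 0.73) depends on the floor of 10 (unadjusted p = 0.0466, adjusted p = 0.133, limma), and the call was lost without either trastuzumab array (2.37 and 2.58).

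Higher values in BT474 that did not pass the thresholds were led by hsa-miR-3653, with 171 and 256 with PBS and 489 and 479 with trastuzumab. The trastuzumab arrays lay above the PBS arrays, with a difference of 0.98 (SE 0.24) and unadjusted p = 0.0297, adjusted p = 0.106 (limma), just under the fold threshold. hsa-miR-1973, which lies within the span of MTRNR2L13, a nuclear copy of mitochondrial ribosomal RNA sequence, had 174 and 201 with PBS and 445 and 297 with trastuzumab and a difference of 0.77 (SE 0.36) (adjusted p = 0.274, limma). hsa-miR-4291 had 92.7 and 174 with PBS and 236 and 219 with trastuzumab and 0.69 (SE 0.40) (adjusted p = 0.365, limma). hsa-miR-4449, within the long non-coding RNA gene DANCR, had 94.1 and 114 with PBS and 175 and 146 with trastuzumab and 0.51 (SE 0.25) (adjusted p = 0.291, limma). In all 4 miRNAs each trastuzumab signal was above each PBS signal. Over the 54 miRNAs of all 7 arrays, the deposited signals had trastuzumab above PBS without overlap in 15 (27.8%) and PBS above trastuzumab in 17 (31.5%), where all 173 such miRNAs gave 41% and 13.9%.

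In SKBR3, where PBS is a single array, the median of the late-annotated miRNAs lay close to that of the array. Of 77 tested, 7 were called, 3 higher and 4 lower, and 11.5% of the 227 miRNAs tested were called (7.93% higher and 3.52% lower). These counts include miRNAs with no spread of their own, which are at the floor on both trastuzumab arrays, and without them 4 of the 77 (3 higher and 1 lower) and 7.49% of the 227 were called. The median shift was -0.13, against -0.092 for all 227. With 75th percentile scaling 8 were higher and 4 lower, and with no normalization 8 and 3, and these scalings moved the median of all miRNAs to 0.21 and 0.38. Without trastuzumab replicate 2, 11 were called. The lone PBS array is assumed in the fit to vary like the trastuzumab arrays, so that no value of its own spread enters the p-values. With the copied array under its SKBR3 label, none of the 86 tested was called by limma, and 16 of the 285 array miRNAs had an unadjusted p under 0.05.

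The higher calls in SKBR3 were hsa-miR-4725-5p, hsa-miR-1281 and hsa-miR-3591-3p. hsa-miR-4725-5p had 60.7 with PBS and 324 and 261 with trastuzumab and a difference of 1.47 (SE 0.071) with unadjusted p = 0.00882, adjusted p = 0.0848 (limma), and it was not called without trastuzumab replicate 1 (1.41) or replicate 2 (1.50). hsa-miR-1281 was not detected with PBS and 84.0 and 74.6 with trastuzumab (adjusted p = 0.0251, limma), and its probes had spot means of 138 and 152 with PBS and 177 and 385 with trastuzumab. hsa-miR-3591-3p was not detected with PBS and 163 and 106 with trastuzumab (adjusted p = 0.0848, limma), and its probes had spot means of 15.2 and 141 with PBS and 144 and 653 with trastuzumab. Both p-values rest on the floor for the 1 PBS array. The spot means, which are not normalized, were 1.28 and 2.53 times higher with trastuzumab for hsa-miR-1281 and 9.47 and 4.63 times for hsa-miR-3591-3p.

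hsa-miR-4254 and hsa-miR-3162-3p had the next largest differences among miRNAs detected on all SKBR3 arrays. hsa-miR-4254 had 158 with PBS and 580.2 and 407 with trastuzumab and a log2 difference of 1.02 (SE 0.17) (unadjusted p = 0.0532, adjusted p = 0.163, limma), which missed the p threshold. hsa-miR-3162-3p had 248 with PBS and 697 and 579 with trastuzumab and 0.90 (SE 0.043) (unadjusted p = 0.00864, adjusted p = 0.0848, limma), which missed the fold threshold. hsa-miR-4442 had 45.8 with PBS and 147 and 135 with trastuzumab and 0.81 (SE 0.085) (unadjusted p = 0.0272, adjusted p = 0.126, limma). In BT474 the differences of the same 3 miRNAs were 0.038, 0.18 and -0.099. The sequences of the higher miRNAs are given with their positions.
hsa-miR-4725-5p: aGACCCUGcagccuucccacc (chr17:31575281-31575301, plus strand)
hsa-miR-4254: gCCUGGAGcuacuccaccaucuc (chr1:31758670-31758692, minus strand)
hsa-miR-3162-3p: uCCCUACCccuccacucccca (chr11:59595087-59595107, minus strand)
hsa-miR-4442: gCCGGACAagagggagg (chr3:25664875-25664891, minus strand)
hsa-miR-4254 lies within ADGRB2, an adhesion receptor gene, hsa-miR-3162-3p within OSBP, the oxysterol binding protein gene, and hsa-miR-4442 within TOP2B, a DNA topoisomerase gene.

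hsa-miR-3196 was the lower call in SKBR3 with signal in both treatments. It had 137 with PBS and 74.1 and 73.5 with trastuzumab and a difference of -1.24 (SE 0.16) with unadjusted p = 0.0352, adjusted p = 0.138 (limma), and it lost the call without trastuzumab replicate 1 (-1.11) or replicate 2 (-1.33). The other 3 lower calls, hsa-miR-3940-5p, hsa-miR-5581-5p and hsa-miR-5001-5p, were detected on the PBS array at 45.9, 43.4 and 42.0 and on neither trastuzumab array. They have no spread of their own, since the trastuzumab arrays lie at the floor, so that no p is given. Their probes differed little between the treatments. The brighter probe of hsa-miR-3940-5p had spot means of 216 with PBS and 181 with trastuzumab, and that of hsa-miR-5001-5p had 219 and 183. The probes of hsa-miR-5581-5p had 205 and 190.1 with PBS and 202 and 201 with trastuzumab. hsa-miR-4687-3p had 147 with PBS and 122 and 124 with trastuzumab and a difference of -0.83 (SE 0.07) (unadjusted p = 0.0195, adjusted p = 0.113, limma). hsa-miR-4466 and hsa-miR-4739 had differences of -0.64 (SE 0.24) and -0.59 (SE 0.15) with adjusted p-values of 0.328 and 0.235 (limma). Without normalization hsa-miR-4466 had nearly the same signal in both treatments, 169.8 with PBS and 168 and 171 with trastuzumab. The probes of hsa-miR-4687-3p went in opposite directions. The only probe mostly above background in SKBR3 had spot means of 481 with PBS and 576 and 607 with trastuzumab. The dimmer probe had 250 with PBS and 215 and 218 with trastuzumab.

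**Figure D3:**
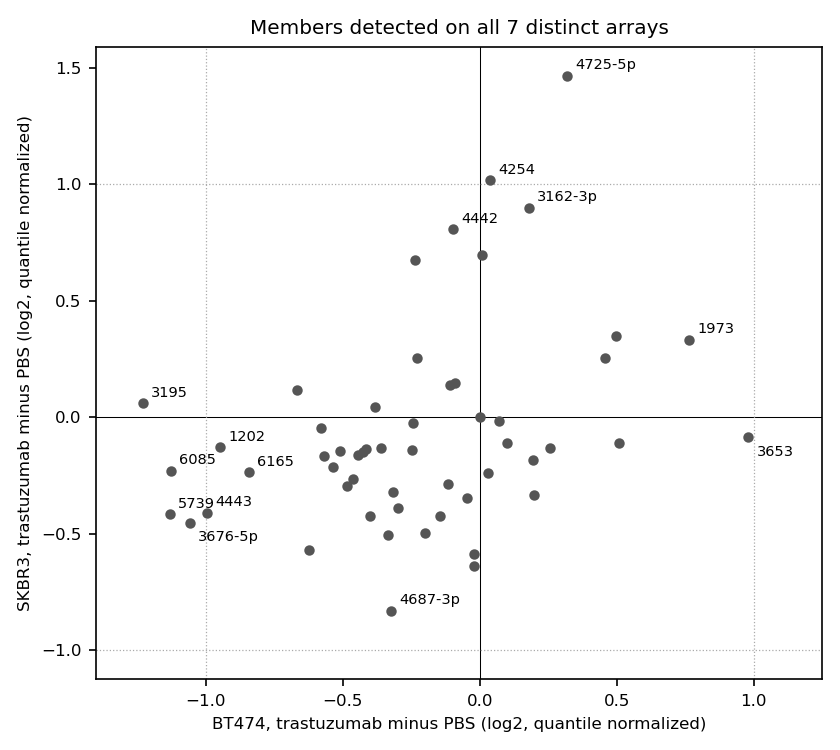
Trastuzumab minus PBS difference of quantile-normalized log2 signal in BT474 (horizontal axis, 2 arrays against 2) and SKBR3 (vertical axis, 2 arrays against 1) for the 54 late-annotated miRNAs detected on all 7 arrays, with dotted lines at a 2-fold change. hsa-miR-3195, hsa-miR-5739, hsa-miR-6085 and hsa-miR-3676-5p lie beyond -1 in BT474, and hsa-miR-4725-5p and hsa-miR-4254 beyond 1 in SKBR3.

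Whether the lines responded differently was tested in a limma fit to the 7 arrays, at an adjusted p under 0.05. Of 90 miRNAs tested, 8 were called, 3 with the higher response in BT474 and 5 with the lower, and 16.1% of the 305 array miRNAs were (9.84% higher and 6.23% lower). The 3 higher ones have no spread of their own and no p, which leaves 5 of the 90, all lower in BT474, and 14.4% of the 305. The number was 14 without BT474 PBS replicate 1, 14 without BT474 PBS replicate 2, 20 without BT474 trastuzumab replicate 2 and 15 without SKBR3 trastuzumab replicate 2. The summed signals of hsa-miR-1281 and hsa-miR-3591-3p moved in opposite directions in the 2 lines. hsa-miR-1281 was lower with trastuzumab in BT474 and appeared with trastuzumab in SKBR3, and the responses differed by -5.50 (SE 0.48) (adjusted p = 0.00899, limma). hsa-miR-3591-3p had 247 and 246 with PBS and 111 and 221 with trastuzumab in BT474, with a change of -0.89 (SE 0.22) (adjusted p = 0.109, limma), and the responses differed by -5.07 (SE 0.34) (adjusted p = 0.00486, limma). The size of both differences depends on the floor, since the SKBR3 PBS array had no signal. On their brighter probes the treatments overlapped in BT474. The spot means were 649 and 516 with PBS and 254 and 594 with trastuzumab for hsa-miR-1281. For hsa-miR-3591-3p they were 807 and 803 with PBS and 524 and 1041 with trastuzumab. The dimmer probe of each was lower on both BT474 trastuzumab arrays. hsa-miR-6085 and hsa-miR-3676-5p were detected on all 7 arrays. In SKBR3 the deposited signals of hsa-miR-6085 were 364 with PBS and 434 and 425 with trastuzumab. Those of hsa-miR-3676-5p were 195 with PBS and 227 and 191 with trastuzumab. Without normalization these were log2 changes of 0.24 and 0.091. After quantile normalization the SKBR3 changes were -0.23 and -0.45, against -1.13 and -1.06 in BT474. The responses differed by -0.90 (SE 0.14) (adjusted p = 0.0316, limma) and -0.61 (SE 0.077) (adjusted p = 0.0198, limma). hsa-miR-4653-3p was not detected in BT474, so that its difference of -0.70 (SE 0.075) (adjusted p = 0.0135, limma) rests on its SKBR3 arrays and on the floor in BT474, and the remaining 3 are the miRNAs of the single SKBR3 PBS array.

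hsa-miR-3591-3p lies opposite hsa-miR-122-5p, the main miRNA of liver cells, on chromosome 18. A stretch of 21 bases, in capitals here, is complementary between them.
hsa-miR-3591-3p: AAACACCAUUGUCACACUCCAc (chr18:58451087-58451108, minus strand)
hsa-miR-122-5p: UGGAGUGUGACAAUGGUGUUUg (chr18:58451088-58451109, plus strand)
None of the 7 arrays detected hsa-miR-122-5p.

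**Figure D4:**
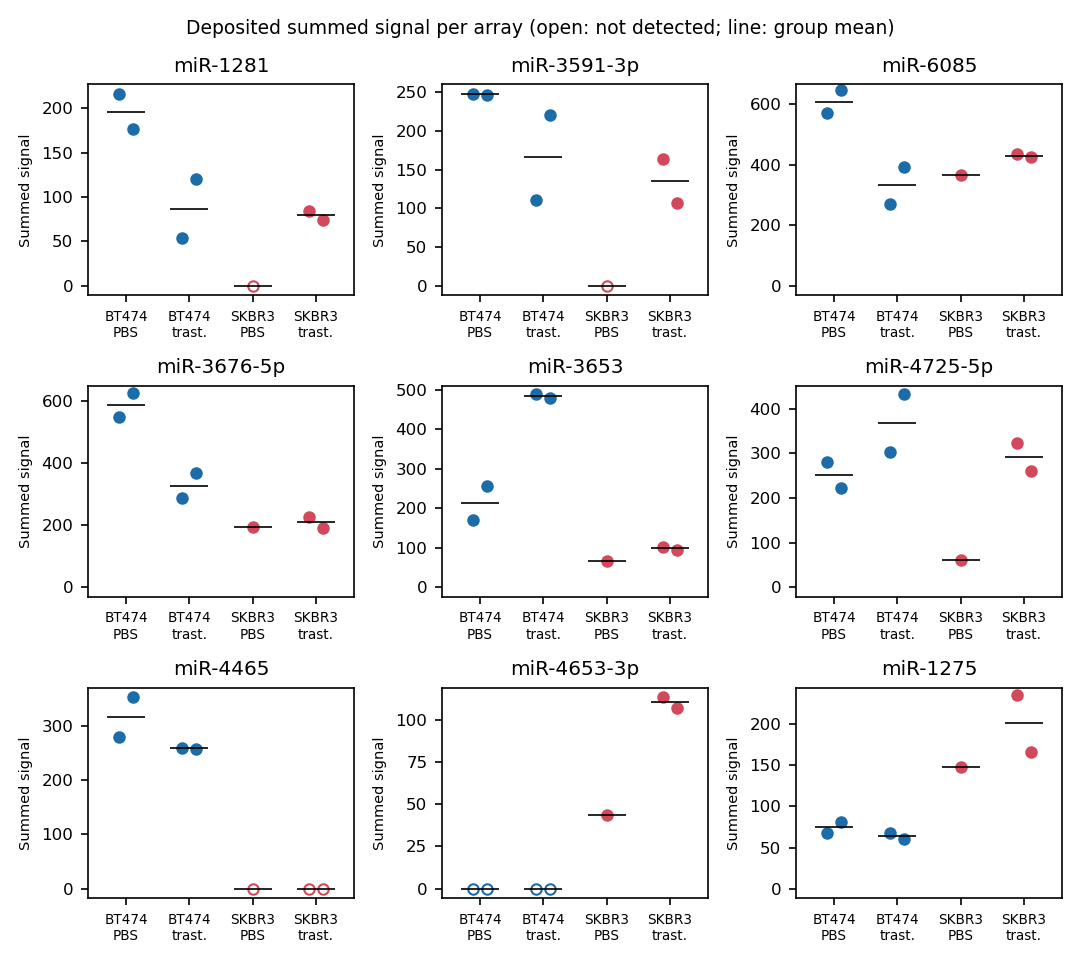
Deposited summed signal per array (linear axis from 0) of 9 late-annotated miRNAs in BT474 (blue) and SKBR3 (red) with PBS or trastuzumab, with 1 point per array, open points where the miRNA was not detected and a line at the group mean. hsa-miR-1281 and hsa-miR-3591-3p are lower with trastuzumab in BT474 and not detected on the single SKBR3 PBS array, hsa-miR-4465 has signal in BT474 and hsa-miR-4653-3p in SKBR3.

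Between the lines, the late-annotated miRNAs differed less in deposited signal than the earlier-numbered miRNAs did. Over the 54 miRNAs of all 7 arrays, the median BT474 minus SKBR3 difference of log2 signal was 0.11 (quartiles -0.057 and 0.57), whereas the 107 earlier-numbered miRNAs of all arrays had a median of 1.28 (quartiles 0.61 and 1.81). No test was made of this difference. Signals of all BT474 arrays lay above those of all SKBR3 arrays for 11 of the 54 (20.4%), where 53.2% of all 173 such miRNAs did. The reverse order was seen for 6 of the 54 (11.1%), where 4.05% of the 173 did and where 1 earlier-numbered miRNA was found.

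**Figure D5:**
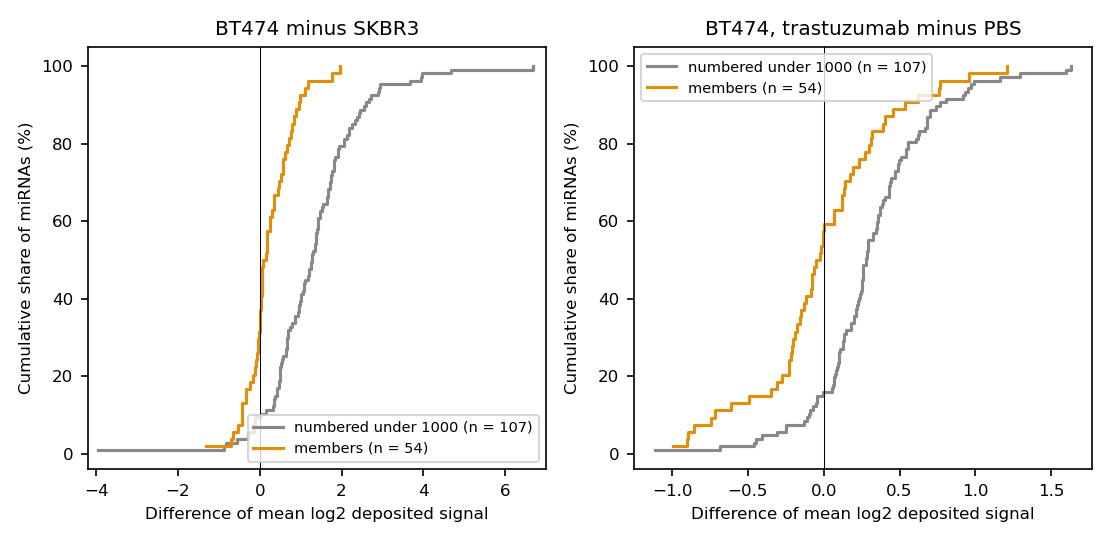
Cumulative share (%) of miRNAs detected on all 7 arrays against the difference of mean log2 deposited signal, BT474 minus SKBR3 (left) and trastuzumab minus PBS in BT474 (right), for the 54 late-annotated miRNAs (orange) and the 107 earlier-numbered miRNAs (grey). The medians are 0.11 and 1.28 on the left and -0.038 and 0.28 on the right.

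After quantile normalization, which sets the arrays to 1 distribution, the same miRNAs came out lower in BT474. Of 90 tested, 36 were called (adjusted p below 0.05, over 2-fold), with 7 higher and 29 lower in BT474, and 43.9% of the 305 array miRNAs were called (23.9% higher and 20% lower). Of the lower calls, hsa-miR-3940-5p, hsa-miR-5581-5p and hsa-miR-5001-5p have no spread of their own and no p, and without such miRNAs 33 of the 90 (7 higher and 26 lower) and 42.3% of the 305 were called. The split was 9 higher and 18 lower with 75th percentile scaling and 12 higher and 5 lower with no normalization. The median of the 90 was -0.90 against 0 for all tested miRNAs, and without normalization it was 0.081 against 0.86, so that the distance to the array was -0.78. With the copied array under its SKBR3 label, 0 of the 90 were called by limma, and 151 of the 305 array miRNAs had an unadjusted p under 0.05. The directions below are those that held under the 3 scalings, unless it is stated otherwise.

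hsa-miR-1275 and hsa-miR-4516 were higher in SKBR3 on every array. hsa-miR-1275 ranged from 61.0 to 81.4 in BT474 and from 149 to 236 in SKBR3, and its normalized difference was -2.73 (SE 0.36) (adjusted p = 0.00415, limma). hsa-miR-4516, which lies within PKD1, the polycystin gene, ranged from 955 to 1322 and from 1669 to 1913, with a difference of -1.82 (SE 0.098) (adjusted p = 0.000337, limma). For hsa-miR-4739 the ranges were 67.4 to 69.8 and 82.1 to 102, with -1.96 (SE 0.29) (adjusted p = 0.00601, limma). hsa-miR-3198 overlapped between the lines, at 57.5 to 184 and 119 to 170.3, with -1.83 (SE 0.56) (adjusted p = 0.0491, limma), and its call was lost when any 1 of the 7 arrays was left out (-2.30 to -1.49).

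hsa-miR-3653 and hsa-miR-4530 were higher in BT474. hsa-miR-3653 ranged from 171 to 489 in BT474 and from 66.7 to 103 in SKBR3. Its normalized difference of 0.62 (SE 0.17) (adjusted p = 0.0344, limma) was under the fold threshold, and without normalization it was 1.97. hsa-miR-4530 ranged from 1473 to 1993 and from 479 to 534, with a normalized difference of 0.56 (SE 0.087) (adjusted p = 0.00697, limma) and 1.77 without normalization. hsa-miR-3676-5p turned direction with the scaling, from -0.048 after quantile normalization to 1.11 with none, on signals of 287 to 626 in BT474 and 191 to 227 in SKBR3.

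Detection separated the lines for 6 of the 91 miRNAs, as a description of the flags that also chose them. The share over all detected miRNAs was not counted, so that 6 of 91 cannot be called many or few. The pattern was not particular to the late-annotated ones. The earlier-numbered hsa-miR-200a-3p, hsa-miR-200b-3p, hsa-miR-429, hsa-miR-205-5p and hsa-miR-1 were also detected on all 4 BT474 arrays and on no SKBR3 array. hsa-miR-4465, hsa-miR-4291, hsa-miR-6126, hsa-miR-3135b and hsa-miR-1307-5p were detected on all 4 BT474 arrays and on no SKBR3 array. hsa-miR-4465 had 279 and 352 with PBS and 259 and 257 with trastuzumab in BT474. The spot means of its probes were 705 and 673 in BT474 and 161 and 165 in SKBR3, without normalization. hsa-miR-4291 had 92.7 and 174 with PBS and 236 and 219 with trastuzumab in BT474. Its spot means were 332 and 574 in BT474 and 102 and 192 in SKBR3. The other 3 ranged from 56.7 to 117 (hsa-miR-6126), 58.3 to 78.7 (hsa-miR-3135b) and 49.5 to 73.0 (hsa-miR-1307-5p). On the brighter probe of hsa-miR-6126 the lines overlapped, with spot means of 267 to 550 in BT474 and 112 to 275 in SKBR3. Those of hsa-miR-3135b were 275 to 371 and 124 to 130, and those of hsa-miR-1307-5p were 233 to 344 and -18.8 to 43.8. hsa-miR-4653-3p showed the reverse, with 43.8 with PBS and 113 and 107 with trastuzumab in SKBR3 and no detection in BT474. The spot means of its probes were close between the lines, at 233 and 241 in SKBR3 and 177 and 218 in BT474, and neither probe was mostly above background on any array. No p and no fold are given for these miRNAs. They were picked by the detection flags, and the floor stands for every array without detection. hsa-miR-126-3p, hsa-miR-451a and hsa-miR-1, the 3 detected markers of other cell types out of 15, likewise had signal in BT474 alone, up to 88.5, 57.3 and 382, and their part in these differences was not tested.

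Some of these miRNAs carry the sequence of an earlier-numbered miRNA, which is printed beside each with the shared run in capitals.
hsa-miR-4291: UUCAGCAGGAACAGcu
hsa-miR-24-3p: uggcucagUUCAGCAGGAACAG
hsa-miR-4306: UGGAGAGAAAGGCAGUa
hsa-miR-185-5p: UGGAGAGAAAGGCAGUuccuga
hsa-miR-4465: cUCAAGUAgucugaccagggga
hsa-miR-26a-5p: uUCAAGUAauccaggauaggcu
hsa-miR-26b-5p: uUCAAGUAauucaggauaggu
The first 14 bases of hsa-miR-4291 are the last 14 of hsa-miR-24-3p, a broadly expressed miRNA that was detected on all 7 arrays at 9566 to 16138 in BT474 and 3382 to 4931 in SKBR3. hsa-miR-4306 shares its first 16 bases with hsa-miR-185-5p. In BT474 and SKBR3 the deposited signals were 316 to 499 and 232 to 313 for hsa-miR-4306 and 351 to 518 and 261 to 277 for hsa-miR-185-5p. The deposited signals of both were higher in BT474, whereas after quantile normalization both were lower there, with differences of -0.48 (SE 0.04) and -0.45 (SE 0.086). Their trastuzumab changes in BT474 were 0.10 and -0.066. hsa-miR-4465 shares only the seed of 7 bases with hsa-miR-26a-5p and hsa-miR-26b-5p, which were detected in both lines at 1443 to 3394 and 1879 to 3724 in BT474 and 665 to 1159.6 and 867 to 1538 in SKBR3. The files do not tell how far the probes of these pairs bind the other RNA. Over the 77 sequences, the longest run shared with another detected miRNA had a median of 8 bases, and 4 miRNAs had a run of 12 or more.

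An ending in GGAGA was seen in 5 of the 77 sequences, and no other array miRNA with a sequence ended in it (5 of 1687, 0.296%). The ending was noticed after the values were seen and was chosen as the most frequent 5-base end, so that it is a description. The ending is in capitals.
hsa-miR-3198: guggaguccuggggaauGGAGA
hsa-miR-4653-3p: uggaguuaaggguugcuuGGAGA
hsa-miR-4716-3p: aagggggaaggaaacauGGAGA
hsa-miR-5581-5p: agccuuccaggagaaauGGAGA
hsa-miR-6126: gugaaggcccggcGGAGA
The 5 miRNAs did not move as a group. hsa-miR-6126 was a BT474 miRNA and hsa-miR-4653-3p an SKBR3 miRNA by detection, hsa-miR-3198 was detected on all 7 arrays, hsa-miR-4716-3p on the SKBR3 PBS array and trastuzumab replicate 1, at 42.8 and 53.8, and hsa-miR-5581-5p on the SKBR3 PBS array.

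Within BT474 the replicates differed in some of these miRNAs by more than the treatments did, and replicate 1 and replicate 2 lie in different slide columns. hsa-miR-3198 had 59.3 and 140.0 with PBS and 57.5 and 184 with trastuzumab, and hsa-miR-4442 had 49.5 and 122 with PBS and 49.9 and 132 with trastuzumab. In both, the summed signal of replicate 2 was over 2 times that of replicate 1 in each treatment. This was the case for 2 of the 61 late-annotated miRNAs detected on all BT474 arrays and for 0 of 147 earlier-numbered miRNAs. Replicate 2 lay above replicate 1 by any amount in 37.7% of the 61 and 47.6% of the 147. The probes' spot means, replicate 1 against replicate 2, differed less. For hsa-miR-4442 they were 234 and 221 against 306 and 269 with PBS and 205 and 235 against 335 and 311 with trastuzumab. For hsa-miR-3198 they were 265 and 225 against 353 and 320, and 226 and 271 against 411 and 455. No probe of hsa-miR-4442 was mostly above background on any array. hsa-miR-6131, chosen after its values were seen, had 52.5 and 123 with PBS and was not detected on trastuzumab replicate 1 and 126 on trastuzumab replicate 2. Replicate and slide column cannot be told apart.

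Both arms of a hairpin were detected for 2 precursors. The arms of hsa-miR-3162 had 537 and 582 with PBS and 359 and 538 with trastuzumab (5p) and 578 and 549 with PBS and 685 and 814 with trastuzumab (3p) in BT474, with trastuzumab differences of -0.58 (SE 0.12) and 0.18 (SE 0.14). In deposited signal in BT474, the treatments overlapped for the 5p arm, and the 3p arm was higher on both trastuzumab arrays. In SKBR3 both arms were lowest with PBS in deposited signal, at 391 and 248. After quantile normalization the 5p arm in SKBR3 was highest with PBS, at 9.60 against 9.56 and 9.56 with trastuzumab (log2). The 3p arm stayed lowest with PBS, at 8.97 against 9.90 and 9.84. For hsa-miR-1234 the BT474 signals were 628 to 771 (5p) and 56.2 to 70.2 (3p), with trastuzumab differences in BT474 of -0.23 (SE 0.11) and 0.26 (SE 0.27).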

How the data were processed

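Total RNA of BT474 and SKBR3 cells was labelled with Cy3 and hybridized to single-colour arrays, and Agilent Feature Extraction 11.5.1.1 wrote the files. The authors deposited spot intensities after background subtraction and, for each miRNA, a summed intensity with a detection flag, with no normalization between arrays. They also deposited log2 values per probe, which the authors quantile normalized for each line. Here the summed intensities of the 7 distinct arrays were quantile normalized, values under 10 were set to 10, log2 was taken, and groups were compared with limma 3.58.1 in R 4.3.3, with Benjamini-Hochberg adjustment over all miRNAs above the floor on at least 1 array of the fit. Each line was fitted alone for treatment, and the lines and the difference in response were fitted on all 7 arrays. The labels gave each array's line, treatment and replicate. The labels name biological replicates, and p-values measure the spread between these arrays. The fit was tested on simulated data. Figures were made with Python 3.11.15 and matplotlib 3.10.9.

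The miRNAs and lists were chosen with earlier results of these data known. The miRNAs named were the 8 brightest, the 4 highest and 4 lowest differences per line and between the lines among those detected on every array compared, up to 5 detected on all arrays of 1 line and none of the other, the 3 with the widest spread over probes, every called miRNA, shared seeds and both arms of a hairpin. For a miRNA detected on every array of 1 group and on none of the other, mean background-subtracted spot signals are given in place of a fold. They are those of all its probes or of the brighter probe. Alternatives were the copied array under its label, 75th percentile scaling, no normalization, a floor of 1, miRNAs detected on every array, normexp background correction (offset 50), averaged background-subtracted spots, the deposited log2 values, the replicate number as a block, the methods' t-test, and leaving out each array.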

Additional observations from a re-analysis of the deposited data

Results flagged for a closer look

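A difference between the lines in the response to trastuzumab was called for 5 of the late-annotated miRNAs, at an adjusted p under 0.05 (limma). Another 3 with no spread of their own are listed without a p. The BT474 response minus the SKBR3 response, on the log2 scale, was -5.50 for hsa-miR-1281, -5.07 for hsa-miR-3591-3p, -0.90 for hsa-miR-6085, -0.70 for hsa-miR-4653-3p and -0.61 for hsa-miR-3676-5p. It was 3.48 for hsa-miR-3940-5p, 3.27 for hsa-miR-5581-5p and 3.20 for hsa-miR-5001-5p, which were detected on the single SKBR3 PBS array and rest on that array and the floor. The differences of hsa-miR-1281 and hsa-miR-3591-3p also depend on the floor, since neither was detected on the SKBR3 PBS array. hsa-miR-4653-3p was not detected in BT474, where its values are the floor and no response was measured. hsa-miR-6085 and hsa-miR-3676-5p are the 2 of the 8 with signal on all 7 arrays. The SKBR3 side of each difference rests on 1 PBS array, and with the copied array under its SKBR3 label 0 of the 90 were called by limma, while 28 of all 305 miRNAs had an unadjusted p under 0.05.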

How the results depend on the processing

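The counts here include the calls of miRNAs with no spread of their own. The medians here are distances of the late-annotated miRNAs to all miRNAs tested, on the log2 scale. In BT474 the 7 treatment calls became 11 with the deposited log2 values, 2 with no normalization, 4 with the methods' t-test and 0 with normexp (where 345 array miRNAs passed an unadjusted p of 0.05 in limma), and 8 to 12 when an array was left out. The median of -0.31 became -0.065 with the deposited values, -0.097 with averaged spots and -0.080 with normexp, and -0.40 to -0.29 without 1 array. In SKBR3 the 7 calls became 12 with 75th percentile scaling, 11 with no normalization, 3 with normexp, 3 among miRNAs detected on every array, 0 with the copied array under its label, and 6 to 11 without 1 trastuzumab array. The median of -0.039 became 0.36 with the copied array, 0.11 with the deposited values and 0.094 with normexp, and -0.048 to -0.021 without 1 array. Between the lines the 36 calls became 17 with no normalization, 7 with normexp, 0 with the copied array, and 33 to 38 without 1 array. The median of -0.90 became -0.72 with the copied array, -0.69 with averaged spots, -0.29 with normexp and -0.56 among miRNAs detected on every array, and -1.01 to -0.85 without 1 array. The 8 differences in response became 18 with 75th percentile scaling, 18 with normexp, 4 among miRNAs detected on every array, 1 with averaged spots, 0 with the deposited values, 0 with the copied array, and 7 to 20 without 1 array. The cause of these changes was not tested.

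With the replicate number as a block, the calls were 5 in BT474, 7 in SKBR3, 35 between the lines and 5 for the difference in response. In BT474, 0 of all 285 miRNAs then had an adjusted p under 0.05 in limma, and 73 passed an unadjusted p under 0.05. The deviations of BT474 PBS replicate 1 and trastuzumab replicate 1 from their group means had a correlation of 0.30 over 173 miRNAs and of 0.45 over the 54 late-annotated ones among them, and with 2 pairs the numbers were not taken to pair the arrays. The direction turned for hsa-miR-4466 in SKBR3 with no normalization (0.00027), for hsa-miR-4739 in SKBR3 with the copied array (0.38), for hsa-miR-5001-5p in SKBR3 with the deposited values (0.13), and for hsa-miR-3676-5p between the lines with 75th percentile scaling (0.21), averaged spots (0.099), no normalization (1.11) and normexp (0.22). Over the named miRNAs, 38 differences had 507 alternative values, of which 379 kept direction and side of the threshold. SKBR3 without its PBS array has no treatment value, and the deposited values, normalized for each line, were not compared between the lines. Signal over background limits the 26 miRNAs without a probe mostly above background.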
